A study of Homo sapiens with 15 samples.

Results

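The mitochondrial ribosomal protein genes are the nuclear genes whose products, with RNAs made inside the organelle, build the mitochondrial ribosome. They were followed here in HepG2, a line derived from a human hepatocellular carcinoma, exposed for 72 h to TCIPP at 25 or 2.5 µM, TCEP at 250 or 25 µM, or the solvent DMSO at 0.1%, with 3 libraries per group. TCIPP and TCEP are chlorinated organophosphate flame retardants, and TCIPP has an added methyl group on each chloroethyl arm of TCEP. Each replicate was a separate seeding, treatment and RNA extraction, per the labels' protocols, from 1 cell line kept to at most 25 passages. The members were chosen by name, as every gene symbol made of MRPL or MRPS, a number and at most 1 letter A, B or C. The rule found 74 genes among the 57773 listed, 46 named MRPL and 28 named MRPS, and all 74 had enough reads to be tested. The genes MRPL30 and MRPS17 are listed in split rows with a number added to the symbol, so they fall outside the rule.

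The mitochondrial ribosome, or mitoribosome, sits at the inner membrane of the mitochondrion and translates only the mRNAs of the mitochondrial genome, which encode core subunits of the oxidative phosphorylation (OXPHOS) complexes. Its small subunit decodes the mRNA, and its large subunit forms the peptide bonds and releases the nascent chain towards the membrane. Part of its proteins have counterparts in bacterial ribosomes, and the rest were added during the evolution of mitochondria. Liver cells are rich in mitochondria, and faults in individual mitoribosomal proteins cause human OXPHOS deficiencies.

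As classed here, 29 of the 74 genes encode large-subunit proteins with a bacterial counterpart and 19 encode large-subunit proteins found only in mitochondria. For the small subunit, 15 were classed with a bacterial counterpart and 10 as found only in mitochondria. The 29 include MRPL55, although it is described as found only in mitochondria, and all values by class keep it there. Also counted with the proteins found only in mitochondria were MRPS18A and MRPS18B, which belong to the S18 family but lie away from the bacterial S18 site. The names do not always give the subunit: MRPS30 and MRPS18A sit in the large subunit. MRPS36 is no longer counted as a mitoribosomal protein and is described as a component of the 2-oxoglutarate dehydrogenase complex, so it was kept as a member by its name only. The members lie on 21 chromosomes. MRPL46 and MRPS11 are the only pair of members that start back to back, with starts 63 bases apart on chromosome 15.

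The members' promoters were searched on both strands for the core letters of 3 factors known for controlling nuclear genes of mitochondria. The stretch ran from 250 bases before to 50 after each start listed for a gene. The core letters were CCGGAAG for the ETS family, to which GABP (NRF2) belongs, AAGATGGC for YY1, and GCGC and TGCGC with any 1 base between them for NRF1. Of the 65 members in the RefSeq promoter table used (GRCh38.p14), 28 (43.1%) held the ETS letters, against 23.1% of the 8984 tested genes in the table and 12.2% of all 27305 genes in it. The YY1 letters were found in 21 members (32.3%), against 6.83% of tested genes and 3.52% of all genes. The NRF1 letters were found in 7 members (10.8%), against 14% of tested genes and 6.98% of all genes. None of the 3 was found in 20 members (30.8%), against 62.1% of tested genes and 80.0% of all genes. These are matches of letters and not measured binding.

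Where the letters stood also differed. Counted from each listed start of a gene, the 28 members with ETS letters held 42 matches. Of these, 36 began before the start and 30 lay within 50 bases of it. The 21 members with YY1 letters held 24 matches, of which 16 began after the start and 17 lay within 50 bases of it. A site near several starts of a gene counts at each, so these are not numbers of distinct sites. Of the 24 YY1 matches, 18 read on the gene's own strand. The YY1 letters contain ATG, the letters of a start codon, and whether they lie at translation starts was not looked up. The last 3 letters of the ETS core can be the first 3 of the YY1 core, but 0 members held the joined form, and 8 members held both cores apart. For each core, 6 members are shown, the most highly expressed of those whose sequence could be given, with 8 bases on either side of the core, 5′ to 3′ on the strand named, to let the sites be compared. Capitals mark the core, the ETS sites come first, and the coordinates are of GRCh38.p14.
MRPS34, chr16:1773139-1773161, plus strand: cggtccggCCGGAAGtcaccgga
MRPL51, chr12:6493352-6493374, minus strand: caggcggaCCGGAAGcactgagg
MRPL18, chr6:159790433-159790455, minus strand: ccaccgacCCGGAAGtagcaagt
MRPS26, chr20:3046007-3046029, minus strand: accgtgccCCGGAAGcggcgcgg
MRPL3, chr3:131502989-131503011, minus strand: aaaacgcaCCGGAAGtgggtccg
MRPS23, chr17:57850044-57850066, plus strand: taccggaaCCGGAAGcggctgct
MRPL45, chr17:38297173-38297196, plus strand: gcgggaacAAGATGGCagccccca
MRPL51, chr12:6493226-6493249, minus strand: taaggcccAAGATGGCtgtcttcg
MRPS18B, chr6:30617855-30617878, plus strand: cgtacgtcAAGATGGCggcgtctg
MRPS18A, chr6:43687767-43687790, minus strand: ggtttttgAAGATGGCggccctca
MRPL47, chr3:179604715-179604738, plus strand: cctcacttAAGATGGCcacatcct
MRPL50, chr9:101398580-101398603, minus strand: tctcatcgAAGATGGCggcgcgat

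The members took 19189 to 90419 exon reads per library, 0.336% to 0.371% of a library's total. Levels are exon counts scaled to library size (CPM, with TMM factors), and a count of 3 reads stood for 0.112 to 0.560 CPM. The spread of a level therefore also reflects depth, and the fewest reads of any member in any library were 7. All 9 hepatocyte markers looked up, such as ALB and APOB, had a mean of at least 1 CPM, with 42890 to 54700 CPM in sum. Of 10 matched markers of blood, endothelial and stromal cells, 3 reached 1 CPM on average and 2 had 0 reads in every library, and the gene at the top, the lysozyme gene LYZ, averaged 4560 CPM; the 10 summed to 4077 to 5413 CPM per library. In bulk RNA, fewer cells of a kind and less RNA per cell cannot be told apart.

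The levels of the members were compared with each other on the deposited RPKM scale, which divides by exon length. With DMSO they spanned 30.2-fold. MRPL45, a large-subunit protein beside the exit of the nascent chain, was highest, at 56.9, 53.4 and 58.1 RPKM in the 3 DMSO libraries. The small-subunit protein gene MRPS34 followed at 57.5, 45.8 and 49.5 RPKM, and these libraries overlap those of MRPL45. MRPL14, a protein at the subunit interface, stood at 46.9 ± 2.10 RPKM, MRPL12, which forms the stalk that recruits translation factors, at 45.6 ± 7.33 RPKM, and MRPL51 at 43.2 ± 2.06 RPKM (SD, n = 3). Each of the top 5 overlapped the next in the order, so their order is not fixed, although MRPL45 lay above MRPL14 in every DMSO library.

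At the low end, MRPL53 was listed at 2.74, 0.592 and 2.25 RPKM and MRPS6 at 2.91, 1.80 and 4.23 RPKM. Their ranges overlap, that of MRPS6 also overlaps that of MRPL49, and both have few uniquely placed reads. MRPL49 stood at 3.90 ± 0.312 RPKM, MRPS11 at 4.98 ± 0.585 RPKM and MRPL48 at 5.001 ± 0.347 RPKM (SD, n = 3). The quartiles of the members were 8.93 and 25.3 RPKM, with a median of 16.1 RPKM, against 4.58 RPKM for all 12567 genes tested. In all, 71 of 74 members were above that all-gene median.

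**Figure D1:**
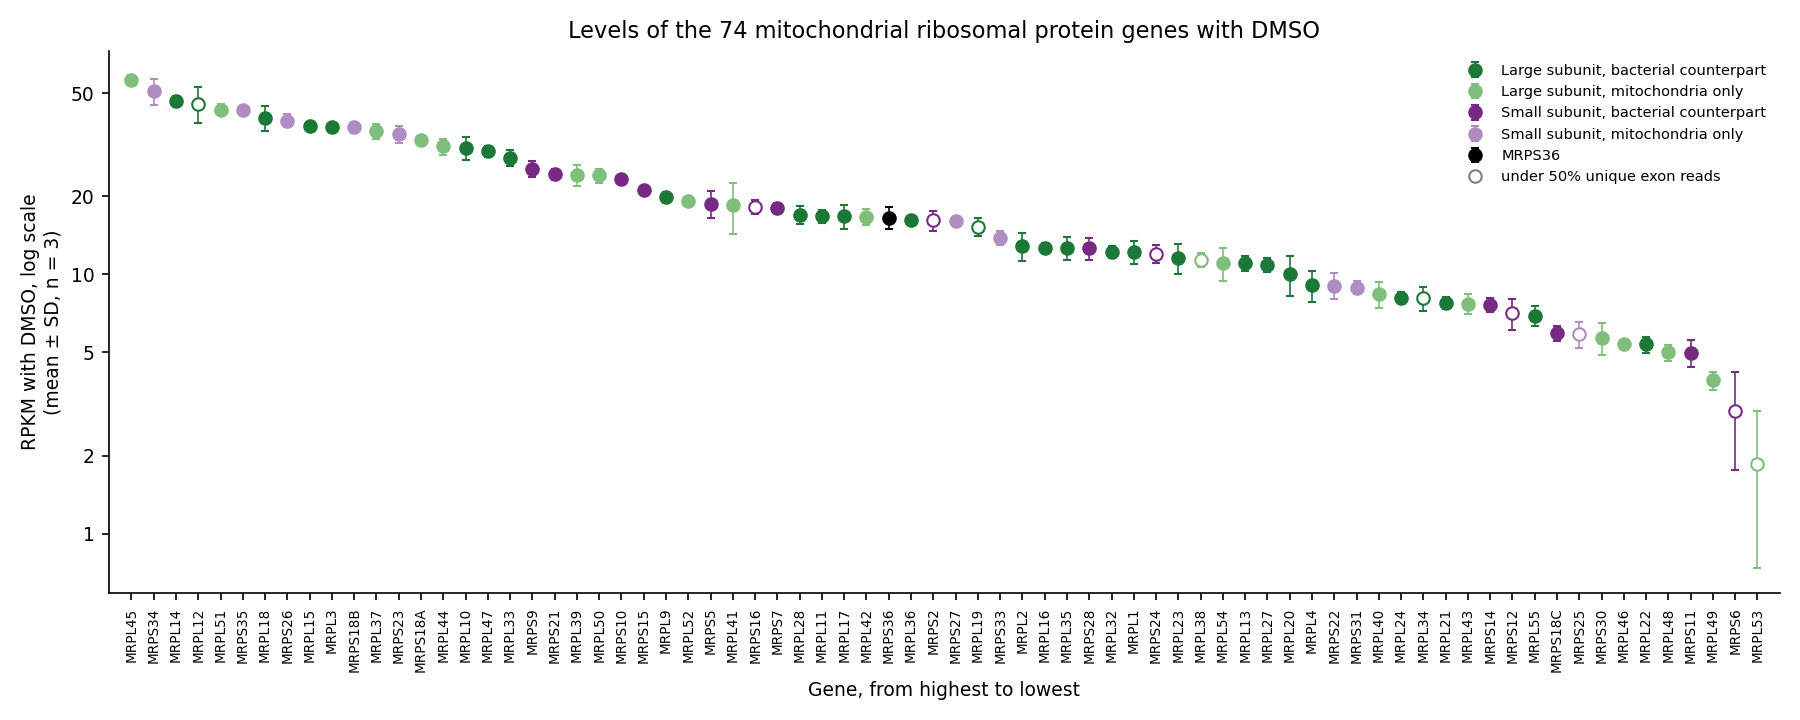
Mean RPKM with DMSO (log axis) of each of the 74 genes, ordered from highest to lowest, with bars for the SD over 3 libraries. Colours give the subunit and whether the protein was classed with a bacterial counterpart, as MRPL55 was. Open circles are genes with under 50% unique exon reads. Levels run from 56.1 for MRPL45 to 1.86 RPKM for MRPL53.

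By class, the median level with DMSO was 12.9 RPKM for the large-subunit proteins classed with a bacterial counterpart, MRPL55 among them. It was 16.6 RPKM for those classed as found only in mitochondria. In the small subunit these were 16.2 and 25.4 RPKM. The ranges of the 4 classes overlapped, from 1.86 to 56.1 RPKM in the large subunit and from 2.98 to 50.9 RPKM in the small subunit. The 3 genes of the S18 family differed in level: MRPS18B stood at 36.9 ± 1.68 RPKM, MRPS18A at 33.0 ± 0.462 RPKM and MRPS18C at 5.95 ± 0.405 RPKM (SD, n = 3). MRPS18C is the copy at the bacterial S18 site of the small subunit, MRPS18B lies elsewhere in the small subunit and MRPS18A lies in the large one. MRPS18A and MRPS18B were also among the members that varied least, with a coefficient of variation (CV, SD over mean) over all 15 libraries of 4.28% and 4.60%. The lowest CV was that of the small-subunit gene MRPS27, at 3.81%, and those of MRPL3 and MRPS9 were 4.81% and 4.99%.

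Spread over the 15 libraries was small for most members. The median CV of a member's CPM over all libraries was 8.65%, against 11.3% for all genes tested. Over the 3 DMSO libraries alone the CV was lowest for MRPS10, at 1.23%, MRPL15, at 1.81%, MRPS18A, at 1.84%, MRPS15, at 2.02%, and MRPL52, at 2.70%. It was highest there for MRPL53, at 61.0%, MRPS6, at 40.96%, MRPL41, at 21.4%, MRPL20, at 18.5%, and MRPL12, at 15.05%. Over all 15 libraries MRPL53, MRPS6, MRPL34, MRPL41 and MRPS12 varied most, at 57.9%, 27.5%, 22.2%, 19.2% and 18.01%. The 5 group means of a member lay within 1.2-fold of each other for 63 of 74 members (85.1%), against 53.4% of all genes tested, and within 1.5-fold for 72 (97.3%), against 87.5%. The 2 exceptions were MRPL53, whose group means spanned 2.01-fold at 7 to 104 reads per library, and MRPL34, at 1.51-fold. The median member had 42.9 CPM with DMSO, against 24.1 CPM for the genes tested, and low counts spread more. The part of level in these comparisons with all genes was not tested.

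Some members cannot be counted cleanly. The median member had 99.8% of its exon reads placed uniquely and 48 members had at least 90%, but 11 members had under 50%. These were MRPL38 (5.69%), MRPL12 (6.43%), MRPL53 (12.97%), MRPS24 (19.1%), MRPS16 (21.3%), MRPS6 (21.97%), MRPL34 (24.6%), MRPS12 (31.1%), MRPS2 (34.0%), MRPS25 (42.5%) and MRPL19 (47.5%). For them, reads may belong to copies or to overlapping genes, and their values are uncertain. Exons of 25 members share bases with another gene of at least 1 CPM on average, and their values are uncertain too. These were MRPL2, MRPL12, MRPL13, MRPL19, MRPL20, MRPL23, MRPL33, MRPL34, MRPL37, MRPL38, MRPL43, MRPL46, MRPL47, MRPL49, MRPL51, MRPL53, MRPS2, MRPS6, MRPS7, MRPS14, MRPS18C, MRPS22, MRPS24, MRPS25 and MRPS27. MRPL12 shares 701 bases with the row SLC25A10_1, MRPS22 shares 6378 bases with COPB2 on the other strand, at 256.1 CPM, and MRPS25 shares 7157 with NR2C2. No source used here says if strand entered the counting, so reads of such partners cannot be told apart.

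The first question was whether any exposure moved these genes away from DMSO. The summed level of the family differed little between groups. In sum, the 74 members took 3452, 3608 and 3315 CPM in the libraries with TCIPP at 25 µM and 3462, 3545 and 3355 CPM with TCIPP at 2.5 µM. They took 3580, 3695 and 3579 CPM with TCEP at 250 µM and 3543, 3562 and 3509 CPM with TCEP at 25 µM, against 3528, 3492 and 3541 CPM with DMSO. The mean with TCEP at 250 µM was 1.03 times that with DMSO and its 3 libraries did not overlap the DMSO libraries, while TCIPP at 25 and 2.5 µM averaged 0.982 and 0.981 times DMSO and overlapped it. The summed CPM of the large over the small subunit's genes stayed between 1.64 and 1.79 in all 15 libraries, and both ends of that range were DMSO libraries.

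**Figure D2:**
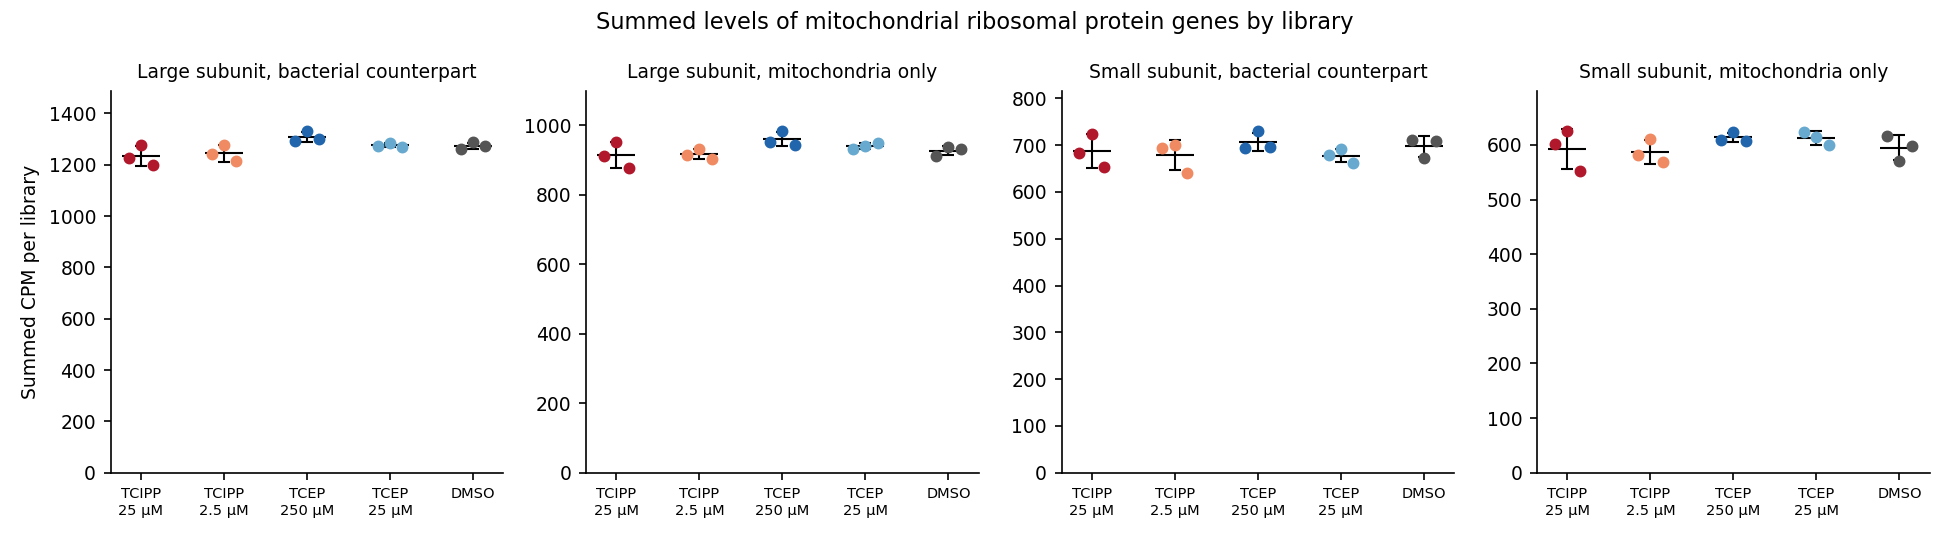
Summed CPM per library of the genes of each class, with 1 point per library, the mean as a dash and the SD over 3 libraries as bars, on axes from 0. In each class the groups lie close together. The large-subunit genes classed with a bacterial counterpart, MRPL55 among them, averaged 1235 CPM with TCIPP at 25 µM. They averaged 1308 CPM with TCEP at 250 µM and 1274 CPM with DMSO.

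Gene by gene, 0 of 74 members passed edgeR's quasi-likelihood test at an adjusted p under 0.05 in any of the 4 comparisons with DMSO. All genes gave few calls too: the percentage called was 0.00796% with TCIPP at 25 µM, 0.0955% with TCIPP at 2.5 µM and 0% with TCEP at 250 µM and at 25 µM. DESeq2 also called 0 members. In the same order, it called 0.392%, 2.09%, 0.421% and 2.7% of the 8668, 11105, 4040 and 5745 genes it gave an adjusted p. It could not call members outside those. At an unadjusted p under 0.05, 0 members were higher and 2 lower with TCIPP at 25 µM, where 3.41% and 2.95% of all genes were. With TCIPP at 2.5 µM 2 were higher and 3 lower, beside 7.81% and 6.06% of all genes. With TCEP at 250 µM 2 were higher and 0 lower, beside 2.39% and 2.81% of all genes, and with TCEP at 25 µM 2 were higher and 3 lower, beside 7.42% and 7.81%. The members' counts are near or below those shares.

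The intervals show what size of difference the data allow. The 95% confidence interval of the log2 fold change lay wholly within 1.5-fold for 71, 70, 72 and 69 of the 74 members with TCIPP at 25 µM, TCIPP at 2.5 µM, TCEP at 250 µM and TCEP at 25 µM. It lay within 2-fold for 73, 72, 73 and 73 members. Within 1.5-fold lay 75.02%, 73.06%, 76.41% and 72.41% of all genes tested, in the same order. For the nuclear OXPHOS subunit genes tested these shares were 100%, 97.22%, 100% and 97.22%. The median member's log2 fold change was -0.04 with TCIPP at 25 µM, with 26 of 74 above 0 beside 49.2% of all genes, and -0.05 with TCIPP at 2.5 µM, again with 26 above 0 beside 48.9%. It was 0.03 with TCEP at 250 µM, with 48 above 0 beside 50.6%, and 0.002 with TCEP at 25 µM, with 38 above 0 beside 50.1%. The medians over all genes tested lay between -0.004 and 0.002. The medians for both TCIPP groups and for TCEP at 250 µM kept their sign under each scaling tried, but that for TCEP at 25 µM was -0.004 with library totals. The SD between replicate libraries of the members' median log2 level was 0.02 to 0.04. This is a spread of single libraries and not the error of a difference between groups, and the medians were not tested. As deviations from each gene's mean over all libraries, the members' medians were 0.043, 0.078 and 0.027 with TCEP at 250 µM. With DMSO they were -0.001, -0.012 and 0.023, and the other treated groups overlapped these. By class, the medians with TCIPP at 25 µM were -0.07 and -0.02 for the large-subunit proteins classed with and without a bacterial counterpart. MRPL55 was kept in the first of these. For the small subunit the medians were -0.06 and -0.02. With TCEP at 250 µM the same 4 medians were 0.02, 0.03, 0.02 and 0.06.

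**Figure D3:**
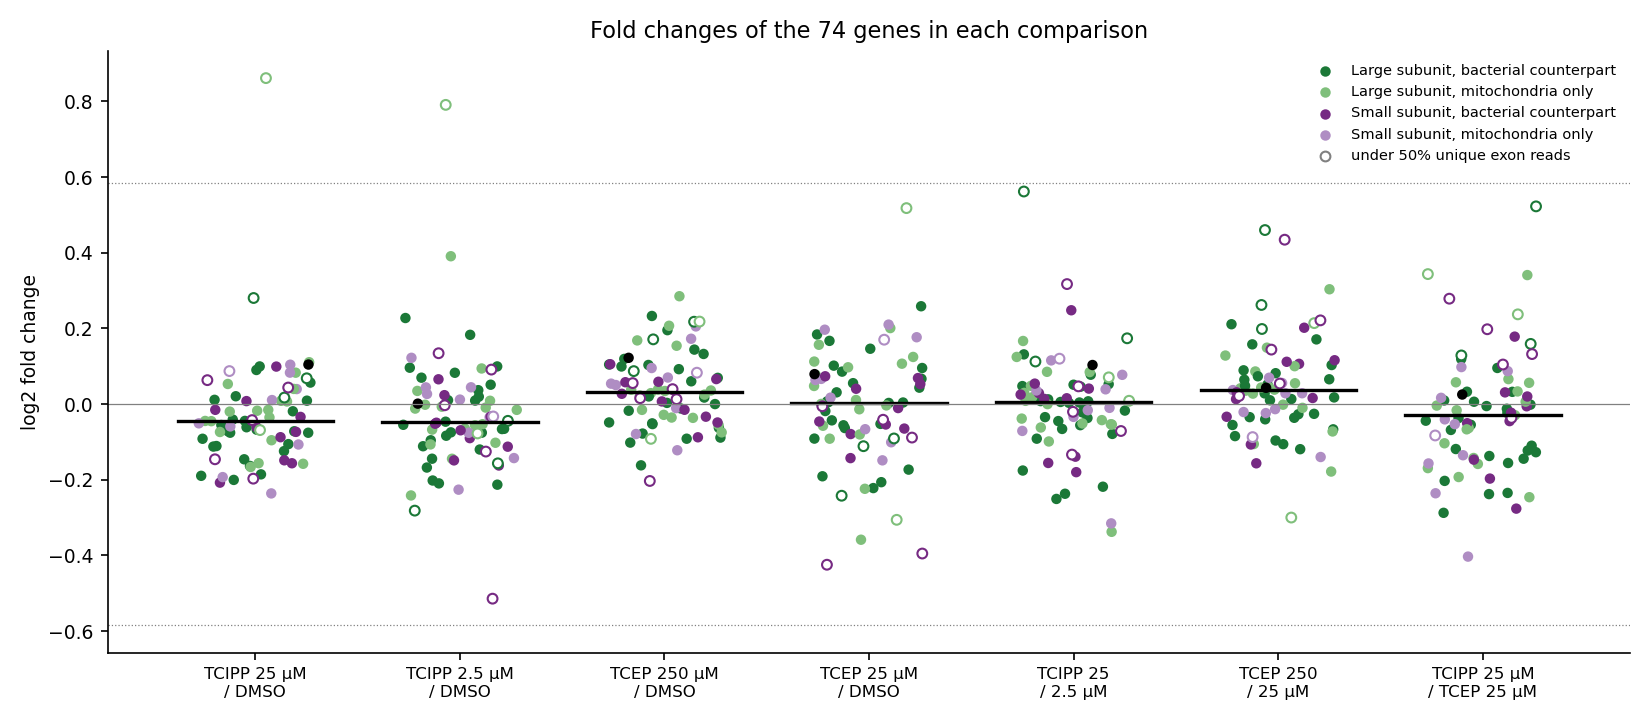
Log2 fold changes of the 74 genes in the 7 comparisons, with 1 point per gene, a black line at the median and dotted lines at 1.5-fold. Colours give the subunit class, black points are MRPS36 and open circles are genes with under 50% unique exon reads. The gene above the upper dotted line in the first 2 columns is MRPL53, which has 12.97% unique exon reads.

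Counted by overlap of libraries, 9 members lay above every DMSO library in all 3 libraries with TCEP at 250 µM and 0 lay below, where 5.52% of all genes lay above and 5.37% below. The 9 were MRPL2, MRPL9, MRPL15, MRPL34, MRPL50, MRPL52, MRPL54, MRPS18B and MRPS31, named after their values were seen, with log2 fold changes from 0.10 to 0.29. With TCIPP at 25 µM 1 member lay above and 1 below, beside 4.77% and 4.3% of all genes. With TCIPP at 2.5 µM 1 lay above and 5 below, beside 8.82% and 7.94%, and with TCEP at 25 µM 4 lay above and 3 below, beside 11.4% and 11.3%.

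Among the large-subunit proteins with a bacterial counterpart, MRPL18 (chromosome 6, 160210844 to 160219468, GRCh37) stood out by recurrence. It belongs to the central protuberance of the large subunit. Its levels were 56.2, 54.0 and 49.7 CPM with TCIPP at 25 µM and 56.6, 52.7 and 53.0 CPM with TCIPP at 2.5 µM. They were 57.6, 57.2 and 60.6 CPM with TCEP at 250 µM and 54.7, 49.5 and 51.9 CPM with TCEP at 25 µM, against 56.8, 67.8 and 57.9 CPM with DMSO. Each library of 3 of the treated groups was thus below every DMSO library, and TCEP at 250 µM overlapped DMSO. The log2 fold changes were -0.19 ± 0.08 (SE) with TCIPP at 25 µM, -0.17 ± 0.08 with TCIPP at 2.5 µM and -0.22 ± 0.08 with TCEP at 25 µM. None passed edgeR's test (adjusted p = 0.735, 0.360 and 0.197), and the 3 comparisons share the DMSO libraries. Without DMSO replicate 2, the highest of the 15 libraries, they were -0.11, -0.09 and -0.14. The gene whose start lies 109 bases away on the other strand is TCP1, which encodes a subunit of the cytosolic chaperonin, with 277 to 310.5 CPM in treated libraries and 304 to 312 CPM with DMSO. Its log2 fold changes were -0.05, -0.10 and -0.08 in the same 3 comparisons, and it was not called in any.

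MRPL15, also of this class, was measured at 47.8, 50.0 and 47.1 CPM with TCIPP at 25 µM, 52.0, 52.4 and 46.9 CPM with TCIPP at 2.5 µM, 51.5, 54.0 and 51.7 CPM with TCEP at 250 µM and 55.3, 55.4 and 55.8 CPM with TCEP at 25 µM, against 47.8, 49.0 and 49.6 CPM with DMSO. The 3 libraries with TCEP at 25 µM were the highest of the 15. The log2 fold change with TCEP at 25 µM was 0.18 ± 0.07 (SE; edgeR adjusted p = 0.196). MRPL10, which anchors the stalk, was measured at 109.8, 126.7 and 92.9 CPM with TCIPP at 2.5 µM, against 94.5, 101.9 and 83.9 CPM with DMSO, and the groups overlapped (log2 fold change 0.23 ± 0.10 SE, edgeR adjusted p = 0.343). MRPL32, a protein whose cleavage by a mitochondrial protease precedes ribosome assembly, had 38.9, 38.7 and 44.8 CPM with TCIPP at 2.5 µM, against 50.4, 47.8 and 44.6 CPM with DMSO (log2 fold change -0.20 ± 0.08 SE, edgeR adjusted p = 0.270). MRPL20 gave 0.26 ± 0.12 with TCEP at 25 µM (SE, adjusted p = 0.331), and MRPL13 gave -0.20 ± 0.11 with TCIPP at 25 µM (adjusted p = 0.847) and -0.16 ± 0.11 with TCEP at 250 µM (adjusted p = 0.987). With TCIPP at 25 µM the value of MRPL13 was -0.08 without replicate 1 of that group and -0.30 without its replicate 2, and that of MRPL20 was 0.15 without DMSO replicate 2. The value of MRPL10 was 0.11 without TCIPP 2.5 µM replicate 2 and 0.34 without replicate 3. With TCEP at 250 µM MRPL32 gave -0.10 ± 0.08 (SE, adjusted p = 0.987), and MRPL34 gave 0.28 ± 0.18 with TCIPP at 25 µM (adjusted p = 0.884). MRPL33 gave -0.09 ± 0.08 with TCEP at 250 µM (SE, adjusted p = 0.987) and MRPL1, of the stalk beside the tRNA exit, gave 0.18 ± 0.12 with TCIPP at 2.5 µM (adjusted p = 0.552).

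Among the large-subunit proteins found only in mitochondria, MRPL54 (chromosome 19, 3762662 to 3768573, GRCh37) had the smallest p against DMSO. It was measured at 13, 12.97 and 12.1 CPM with TCIPP at 25 µM, 17.3, 14.0 and 16.4 CPM with TCIPP at 2.5 µM, 14.2, 14.0 and 15.9 CPM with TCEP at 250 µM and 12.9, 14.1 and 13.9 CPM with TCEP at 25 µM, against 10.5, 13.7 and 12.3 CPM with DMSO. TCIPP at 2.5 µM and TCEP at 250 µM lay above every DMSO library, the nearest libraries being 14.0 CPM in each against 13.7 CPM. The log2 fold change was 0.39 ± 0.11 with TCIPP at 2.5 µM (SE; 95% interval 0.15 to 0.63; edgeR adjusted p = 0.128) and 0.29 ± 0.11 with TCEP at 250 µM (0.04 to 0.53; adjusted p = 0.946). MRPL54 rested on 69 to 442 reads per library, and all of its exon reads were unique.

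MRPL42 had 77.4, 82.6 and 89.5 CPM with TCEP at 25 µM, against 67.2, 73.7 and 76.0 CPM with DMSO, with no overlap (log2 fold change 0.20 ± 0.09 SE, edgeR adjusted p = 0.314). MRPL50 gave 0.17 ± 0.07 with TCEP at 250 µM (SE, adjusted p = 0.949) and MRPS30, a large-subunit protein despite its name, gave 0.21 ± 0.11 (adjusted p = 0.987). MRPL41 gave -0.36 ± 0.19 with TCEP at 25 µM (adjusted p = 0.378) and MRPL48 gave -0.24 ± 0.10 with TCIPP at 2.5 µM (adjusted p = 0.294). MRPL38, with 5.69% unique reads, had 40.1, 37.9 and 48.8 CPM with TCEP at 25 µM, against 49.1, 53.5 and 54.5 CPM with DMSO (log2 fold change -0.31 ± 0.11 SE, edgeR adjusted p = 0.208). MRPL53 gave 0.86 with TCIPP at 25 µM, but its interval of -0.30 to 2.03 spans 0 (adjusted p = 0.877), and it was 0.31 without TCIPP 25 µM replicate 2 and 1.31 without replicate 3 of that group. The value of MRPL41 was -0.20 without DMSO replicate 2.

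In the small subunit, MRPS12, a decoding-centre protein with 31.1% unique reads, had 12.5, 8.99 and 15.5 CPM with TCEP at 25 µM, against 14.3, 17.3 and 18.3 CPM with DMSO. The groups overlapped, and the fitted value was -0.42 ± 0.18 on the log2 scale (SE; edgeR adjusted p = 0.273), and with TCEP at 250 µM it was -0.20 ± 0.18 (adjusted p = 0.987). MRPS18C gave -0.21 ± 0.09 with TCIPP at 25 µM (adjusted p = 0.754) and MRPS34 gave -0.24 ± 0.12 there (adjusted p = 0.805). The value of MRPS34 was -0.12 without TCIPP 25 µM replicate 3 and -0.14 without DMSO replicate 1, and that of MRPS12 with TCEP at 25 µM was -0.26 without replicate 2 and -0.64 without replicate 3 of that group. MRPS31 gave 0.21 ± 0.10 with TCEP at 250 µM (adjusted p = 0.971) and 0.18 ± 0.10 with TCEP at 25 µM (adjusted p = 0.407). MRPS6, with 21.97% unique reads and 74.96% of its gene's reads in introns, gave -0.51 ± 0.26 with TCIPP at 2.5 µM (adjusted p = 0.389). That value was -0.11 without DMSO replicate 3 and -1.11 with total gene reads, which include introns. MRPS35 gave 0.10 ± 0.08 (adjusted p = 0.908) and MRPS15 0.10 ± 0.08 (adjusted p = 0.917) with TCIPP at 25 µM, and MRPS2, with 34.0% unique reads, 0.13 ± 0.09 with TCIPP at 2.5 µM (adjusted p = 0.551). MRPS36 was measured at 28.8, 29.1 and 32.7 CPM with TCIPP at 25 µM, against 27.1, 25.6 and 31.0 CPM with DMSO, which overlap.

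**Figure D4:**
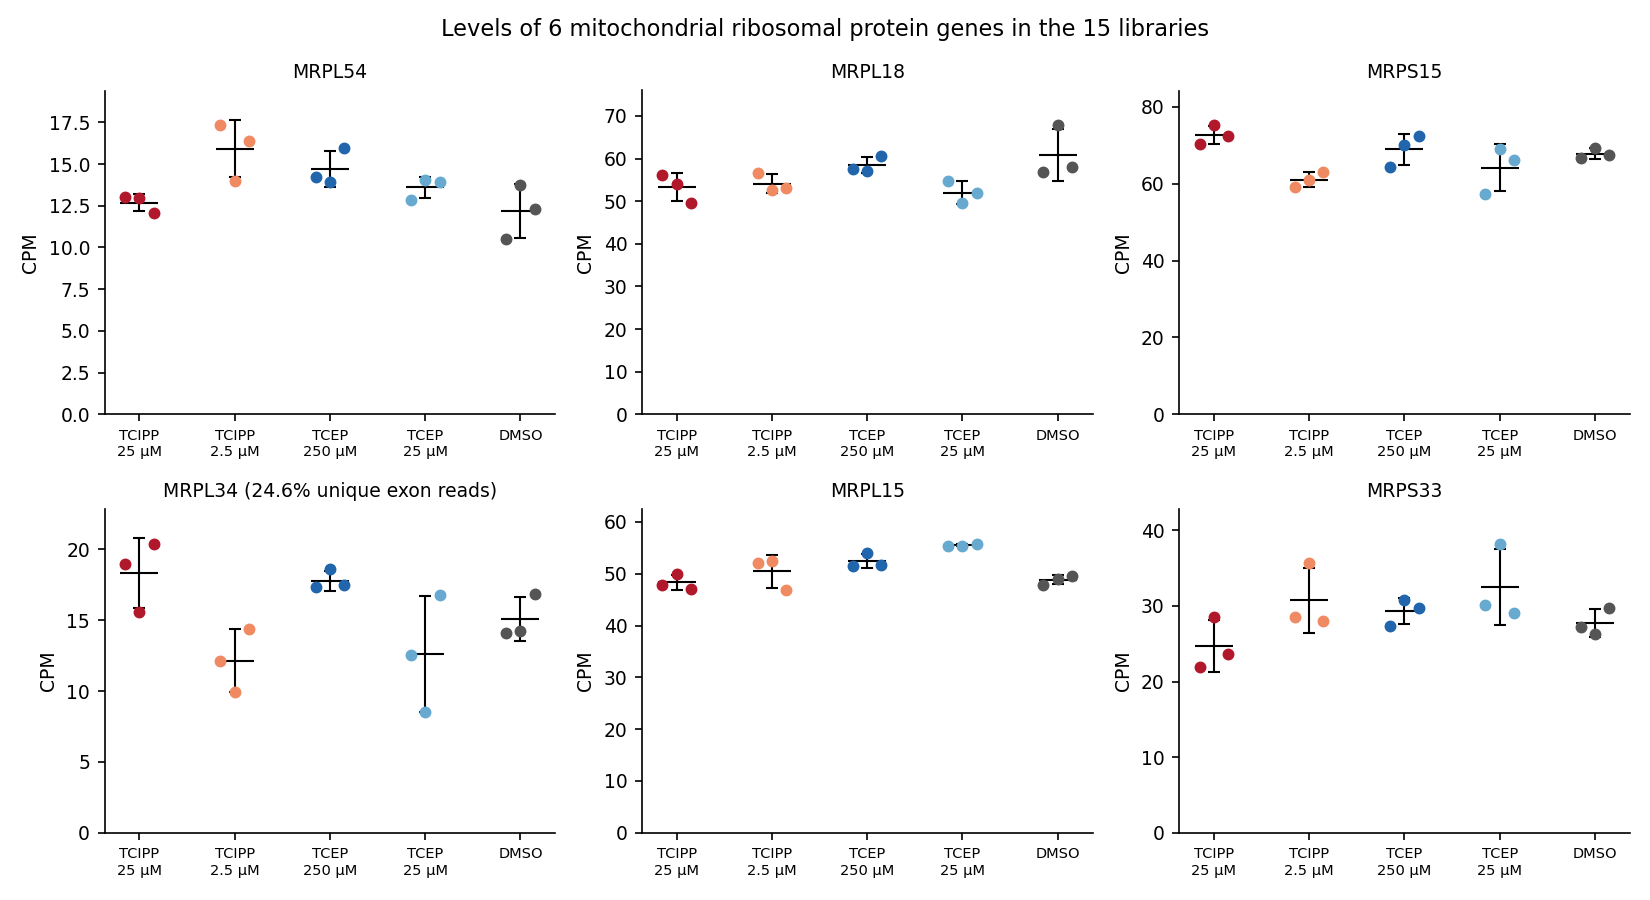
CPM of 6 genes that recurred among the smallest p-values, in the 15 libraries, with 1 point per library, the mean as a dash and the SD over 3 libraries as bars, on axes from 0. MRPL18 is below all DMSO libraries in 3 treated groups, and MRPS15 is higher with TCIPP at 25 µM than at 2.5 µM in every library.

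The second question was what the higher concentration of each compound added. Libraries of different treated groups with the same replicate number deviated together (correlation 0.177 to 0.297 over all genes tested), so each of these comparisons was also fitted with the replicate number as a block. Between 25 and 2.5 µM of TCIPP, 0 of 74 members were called by edgeR without the block, beside 0% of all genes, and 2 of 74 with it, beside 3.85% of all genes. The 2 were MRPS15 and MRPL34. MRPS15 (chromosome 1, 36921319 to 36930038, GRCh37), a small-subunit protein that binds rRNA, had 70.4, 75.2 and 72.5 CPM at 25 µM and 59.2, 60.9 and 63.0 CPM at 2.5 µM of TCIPP. The log2 fold change was 0.25 ± 0.08 without the block (SE, adjusted p = 0.252) and 0.25 ± 0.06 with it (adjusted p = 0.0287). The DMSO libraries, at 66.7, 69.3 and 67.5 CPM, lay between both groups.

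MRPL34, a large-subunit protein with a bacterial counterpart, had 19.0, 15.6 and 20.4 CPM at 25 µM and 12.1, 9.95 and 14.4 CPM at 2.5 µM of TCIPP. Its log2 fold change was 0.56 ± 0.19 without the block (SE, edgeR adjusted p = 0.293) and 0.58 ± 0.14 with it (adjusted p = 0.0312), on 24.6% unique reads. Its exons share 223 bases with ABHD8 on the other strand, so the value is uncertain. MRPL54 had -0.34 ± 0.12 on the log2 scale (SE; adjusted p = 0.311 without and 0.140 with the block), and MRPS33 had -0.32 ± 0.13 (adjusted p = 0.380 and 0.113). MRPL17, a protein near the exit of the nascent chain, gave -0.24 ± 0.10 (SE, adjusted p = 0.406 without the block) and MRPL19, with 47.5% unique reads, 0.17 ± 0.09 (adjusted p = 0.484). At an unadjusted p under 0.05, 2 members were higher and 3 lower, beside 5.03% and 5.78% of all genes. DESeq2 called 0 members and 1.51% of the 4770 genes it gave an adjusted p, and could not call members outside those. In all, 40 of 74 log2 fold changes were above 0, beside 49.6% of all genes. Groups did not overlap for 3 members that were higher and 3 that were lower, beside 5.84% and 6.57%.

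Between 250 and 25 µM of TCEP, 0 of 74 members were called by edgeR without the block, beside 0% of all genes, and 0 with it, beside 1.47%. At an unadjusted p under 0.05 without the block, 4 members were higher and 0 lower, beside 3.33% and 3.83% of all genes. DESeq2 called 0 members, beside 0.176% of the 7938 genes it gave an adjusted p, and could not call members outside those. In all, 49 of 74 log2 fold changes were above 0, beside 50.3%, and groups did not overlap for 4 higher and 2 lower members, beside 7.4% and 7.55%. The 3 with the smallest p were all genes with few unique reads. MRPL34 had 17.3, 18.6 and 17.5 CPM at 250 µM and 12.6, 8.54 and 16.7 CPM at 25 µM (log2 fold change 0.46 ± 0.18 SE, edgeR adjusted p = 0.680), with 0.26 without TCEP 25 µM replicate 2 and 0.74 without its replicate 3. MRPL12, with 6.43% unique reads, had 60.9, 52.8 and 60.1 CPM at 250 µM and 51.1, 45.8 and 48.4 CPM at 25 µM (0.26 ± 0.11, adjusted p = 0.680), and MRPL19 gave 0.20 ± 0.08 (adjusted p = 0.680). The 11 members under 50% unique reads had a median log2 fold change of 0.20 in this comparison, with 9 above 0, and the 48 members with at least 90% unique reads had one of 0.03, with 28 above 0. On the negative side MRPL42 gave -0.18 ± 0.09 (adjusted p = 0.702), MRPS18C -0.16 ± 0.09 (adjusted p = 0.722) and MRPL15 -0.08 ± 0.07 (adjusted p = 0.814).

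The third question was how the compounds compared at the concentration they share, 25 µM, which gave 1 matched pair. Without the block, 0 of 74 members differed between TCIPP and TCEP by edgeR's test, beside 0.0398% of all genes. The 95% interval lay within 1.5-fold for 68 members, beside 69.28% of all genes, and within 2-fold for 73. Of the members' log2 fold changes 28 of 74 were above 0, beside 49.5% of all genes. The 11 members under 50% unique reads had a median log2 fold change of 0.16, with 9 above 0, and the 48 with at least 90% unique reads had one of -0.06, with 13 above 0. At an unadjusted p under 0.05, 2 members were higher and 7 lower, beside 9.19% and 8.94%. Groups did not overlap for 2 higher and 6 lower members, beside 10.4% and 9.82%. DESeq2 called 0 members, beside 3.46% of the 9643 genes it gave an adjusted p, and could not call members outside those. With the block, 5 members were called, 1 higher and 4 lower with TCIPP, beside 8.75% of all genes. The members' count is near that share.

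Of the 4 lower ones, MRPS33 (chromosome 7, 140705854 to 140715028, GRCh37), a small-subunit protein found only in mitochondria, had 21.9, 28.6 and 23.6 CPM with TCIPP and 30.2, 38.2 and 29.1 CPM with TCEP at 25 µM. Replicate 2 was the highest library in both groups, and the groups did not overlap. The log2 fold change was -0.40 ± 0.13 without the block (SE, edgeR adjusted p = 0.127) and -0.39 ± 0.10 with it (adjusted p = 0.0230). MRPL15 had -0.20 ± 0.07 on the log2 scale (SE; adjusted p = 0.136 without and 0.0487 with the block), and its libraries, given above, did not overlap. MRPL42 had -0.25 ± 0.09 (adjusted p = 0.186 without and 0.0112 with the block) and MRPL17 -0.29 ± 0.10 (adjusted p = 0.153 and 0.0314). MRPL34 was the higher one, at 0.52 ± 0.19 (adjusted p = 0.158 and 0.0302), with 0.32 without TCEP 25 µM replicate 2 and 0.80 without its replicate 3. MRPS18C, which shares 1956 exon bases with FAM175A, had -0.28 ± 0.09 and was not called with all libraries (adjusted p = 0.139), but was called without TCIPP 25 µM replicate 2 (-0.38 ± 0.09, adjusted p = 0.0464), where 1.63% of all genes were. MRPS15 gave 0.18 ± 0.08 (adjusted p = 0.226) and MRPL38 0.24 ± 0.11 (adjusted p = 0.283).

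The concentration step of TCIPP was also set against that of TCEP, although the steps lie at different concentrations. By edgeR's test of the difference of steps 0 of 74 members differed, without or with the block, as did 0% of all genes. DESeq2 called 0 as well. At an unadjusted p under 0.05, 0 members were higher and 1 lower, beside 0.716% and 0.939%, and 28 of 74 differences were above 0, beside 49.1%. MRPL54 had the smallest p, with a difference of -0.47 ± 0.16 on the log2 scale (SE, unadjusted p = 0.0112, edgeR adjusted p = 0.9999): its mean was lower at the higher concentration of TCIPP and higher at that of TCEP. MRPL1 gave -0.28 ± 0.17 and MRPL18 -0.19 ± 0.11, while MRPS25, with 42.5% unique reads, gave 0.21 ± 0.16, MRPL32 0.17 ± 0.12 and MRPS15 0.14 ± 0.11, all with an adjusted p of 0.9999.

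The other proteins that work with the mitoribosome were read from the same fit. The 7 further mitoribosomal proteins outside the naming rule, among them MRP63 and the GTP-binding small-subunit protein DAP3, held 0 called genes in all 8 tests. DAP3 averaged 93.9 ± 1.52 CPM with TCEP at 250 µM and 85.7 ± 0.685 CPM with DMSO (SD, n = 3), and the fitted difference was 0.13 ± 0.06 on the log2 scale (SE; adjusted p = 0.955). CHCHD1, of the small subunit, gave 0.22 ± 0.09 in that comparison (adjusted p = 0.946). Of 16 mitochondrial translation factors 0 were called, and the one with the smallest p was C12orf65, a release factor family member that rescues stalled mitoribosomes. Its log2 fold change was -0.85 ± 0.18 with TCEP at 25 µM against DMSO (adjusted p = 0.116) and 0.89 ± 0.18 between TCIPP and TCEP at 25 µM (adjusted p = 0.0753). OXA1L, which inserts nascent chains into the inner membrane, gave 0.17 ± 0.06 with TCIPP at 25 µM and 0.20 ± 0.06 with TCIPP at 2.5 µM (adjusted p = 0.667 and 0.154).

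Of 24 tested genes for mitoribosome assembly and rRNA modification 0 were called. Their medians against DMSO were -0.02 with TCIPP at 25 µM, -0.03 with TCIPP at 2.5 µM, 0.02 with TCEP at 250 µM and -0.02 with TCEP at 25 µM. TFB1M, which methylates the small subunit's rRNA, gave -0.23 ± 0.09 with TCIPP at 2.5 µM (SE, adjusted p = 0.238). Of 12 regulators of mitochondrial biogenesis 0 were called. The coactivator gene PPARGC1A had log2 fold changes of 0.25 ± 0.07 with TCIPP at 25 µM (adjusted p = 0.493) and 0.18 ± 0.07 with TCEP at 250 µM (adjusted p = 0.946), and 0.05 ± 0.07 with TCIPP at 2.5 µM (adjusted p = 0.811). The gene of YY1, whose letters stand in 21 members' promoters, gave -0.09 ± 0.08 with TCIPP at 2.5 µM and -0.10 ± 0.08 with TCEP at 25 µM (adjusted p = 0.684 and 0.606).

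The mitoribosomal genes were last set beside the genes of the cytosolic ribosome and of the machinery the mitoribosome serves. Of 84 tested cytosolic ribosomal protein genes 0 were called against DMSO, and their median log2 fold changes were -0.02 with TCIPP at 25 µM, 0.12 with TCIPP at 2.5 µM, 0.07 with TCEP at 250 µM and 0.18 with TCEP at 25 µM. In the same order 31, 78, 72 and 77 of the 84 were above 0, and 0, 15, 4 and 38 were higher at an unadjusted p under 0.05 while 3, 2, 0 and 0 were lower. The 13 mRNAs encoded by the mitochondrial genome, which the mitoribosome translates, had medians of 0.04, -0.20, -0.10 and -0.20, with 8, 0, 2 and 0 of 13 above 0 and 0 called. At an unadjusted p under 0.05, 0, 7, 0 and 6 of them were lower and 0 higher. The cytochrome b mRNA MT-CYB, for example, gave -0.24 ± 0.06 with TCIPP at 2.5 µM (SE, edgeR adjusted p = 0.102) and -0.21 ± 0.06 with TCEP at 25 µM (adjusted p = 0.160). The 72 tested nuclear OXPHOS subunit genes had medians of -0.07, -0.03, 0.0003 and 0.009, with 0 called. Genes of a list share their libraries, so the medians describe these libraries, and the differences between lists were not tested. The intron share of gene reads was 7.82%, 7.82% and 8.67% with TCIPP at 2.5 µM and 8.05%, 8.06% and 8.59% with TCEP at 25 µM, all below the 9.10%, 8.91% and 8.68% with DMSO, while TCIPP at 25 µM (8.60% to 9.56%) and TCEP at 250 µM (8.31% to 8.75%) overlapped DMSO. The groups with the lower share were those where the cytosolic and mitochondrially encoded lists moved most. With TCEP at 250 µM, where the share overlapped DMSO, the medians of these lists were 0.07 and -0.10. The part of the share in the values of these lists was not tested. Next to them the 74 members' medians, -0.04, -0.05, 0.03 and 0.002, stayed within 0.05 of 0.

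**Figure D5:**
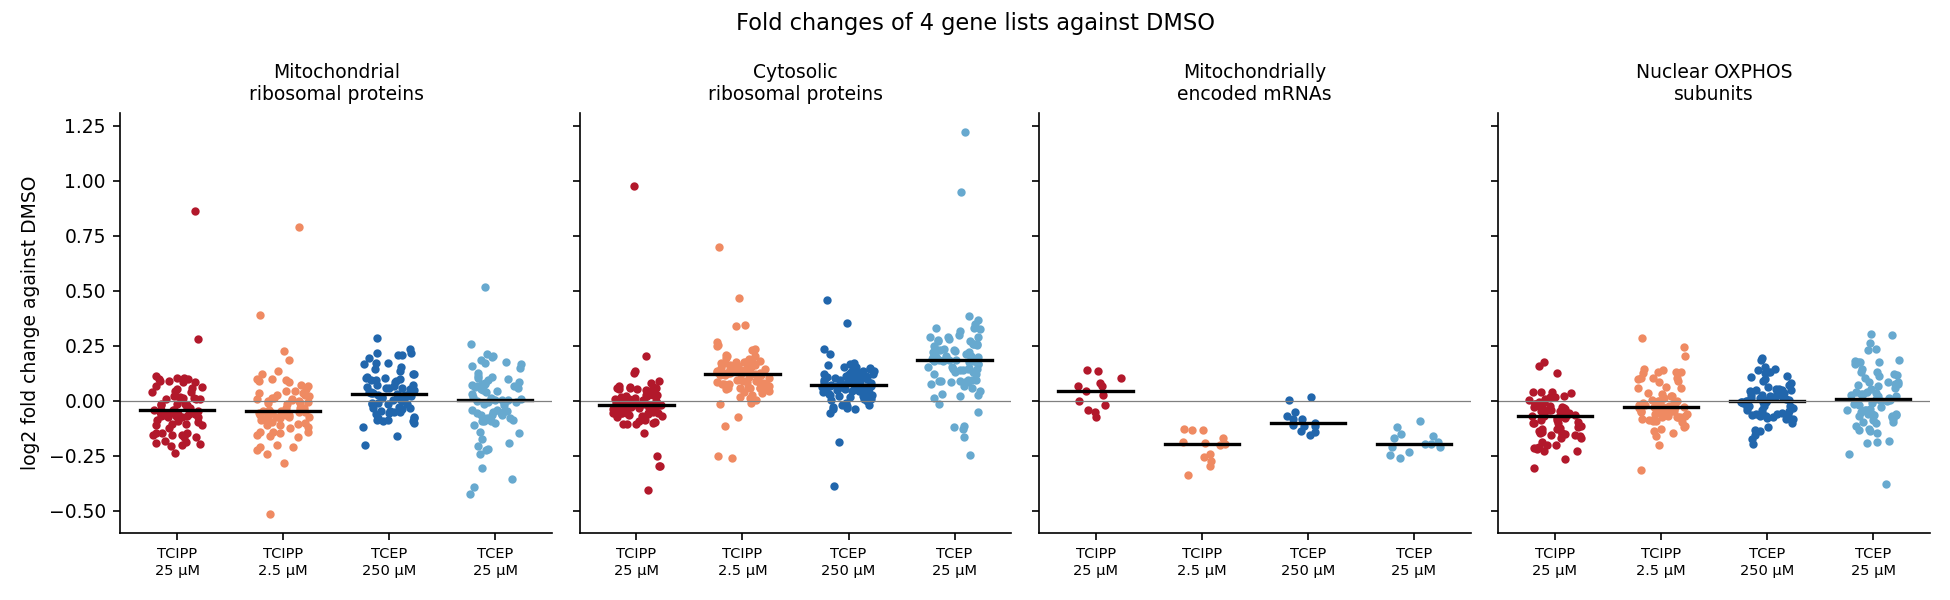
Log2 fold changes against DMSO of 4 gene lists, with 1 point per gene and a black line at the median, for the 4 treated groups. The cytosolic ribosomal protein genes lie mostly above 0 with TCIPP at 2.5 µM and with TCEP at 250 and 25 µM. All 13 mitochondrially encoded mRNAs lie below 0 with TCIPP at 2.5 µM and TCEP at 25 µM, and 11 do with TCEP at 250 µM. The mitochondrial ribosomal protein genes lie on both sides in each group.

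By position, 15 of the 72 members found in the annotation (20.8%) start within 1000 bases of a protein-coding gene read in the opposite direction, against 11.8% of 11561 tested protein-coding genes. Among the neighbours are 2 OXPHOS genes, NDUFS6 beside MRPL36 and NDUFB5 beside MRPL47, and SARS2, the mitochondrial seryl-tRNA synthetase gene, beside MRPS12. Of the 12 members with a tested neighbour, 0 had a neighbour that was called against DMSO. For NDUFB5 the log2 fold changes were 0.04, 0.13, 0.18 and 0.26 with TCIPP at 25 µM, TCIPP at 2.5 µM, TCEP at 250 µM and TCEP at 25 µM, where MRPL47 gave -0.09, -0.14, 0.10 and 0.03. For the pair of members, MRPL46 gave -0.16, -0.11, 0.04 and 0.0004 and MRPS11 gave -0.15, -0.16, 0.06 and -0.14.

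The split rows of MRPL30 and MRPS17 held few reads. With DMSO, MRPL30 was listed at means of 0.882 and 1.72 CPM in its 2 rows and MRPS17 at 2.30 and 3.51 CPM, and 0 of the 4 rows were called in any comparison.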

How the data were processed

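Per the series' design text, CLC Genomics Workbench did the mapping and counting; no version is stated. The submitters' processing notes name the build as hg19. Per the file headers, the deposited table of each library holds total exon read counts per gene, which were tested, and RPKM, used only to compare levels between genes. Recomputing the deposited RPKM matched 100% of values within a relative tolerance of 0.0001.

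All 15 libraries were fitted in 1 model with edgeR 4.0.16 (R 4.3.3), by its quasi-likelihood test with TMM scaling and its filter on low counts, which left 12567 genes. Benjamini-Hochberg adjustment ran over all of them, with calls made below an adjusted p of 0.05. DESeq2 1.42.0 was an alternative. The code was tested on simulated data. The floor of 3 reads covers counting error only, since reads carry no molecular identifiers. Each SE comes from the fold change and its F statistic, and intervals are at 95%. Total exon reads ran between 5.35 and 26.8 M per library, so low members are least precise.

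The members and all lists were chosen with earlier results of these data known, so no p-value was adjusted over a list alone. Members were named by rule: the 4 per direction with the smallest p in each comparison with DMSO and 3 per direction in the others, the 5 highest and 5 lowest by RPKM, those that vary most and least, those with under 50% unique reads or exons shared with another gene, and a fixed set (the S18 family, MRPL12, MRPS12, MRPS30 and MRPS36). Promoter sequences are RefSeq's. Protein sequences were not used here. Alternatives were other scalings, no filter, unique or total gene reads, only the groups compared, a replicate block and leaving out each library.

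Same-numbered libraries of different treated groups deviated together in each of 9 pairs (correlation 0.177 to 0.297, over the limit of 0.1), so those comparisons are also given with a replicate block. The pairing comes from the data, as the labels do not say what a number shares.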

Additional observations from a re-analysis of the deposited data

How the results depend on the processing

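Of the 8 comparisons, the count of members called stayed at 0 with DESeq2 size factors, library totals, unique exon reads, total gene reads, only the groups compared, and the DESeq2 test, which could not call members it gave no adjusted p. Without the filter on low counts it was 1 for TCIPP 2.5 µM against DMSO (MRPS6), 1 for TCIPP 25 against 2.5 µM (MRPL34) and 2 for TCIPP against TCEP at 25 µM (MRPL34, MRPS33), beside 2.51%, 1.57% and 3.44% of genes. With the replicate block it was 2 for TCIPP 2.5 µM against DMSO (MRPL10, MRPL54), 2 for TCEP 25 µM against DMSO (MRPL42 higher, MRPL38 lower), 2 for TCIPP 25 against 2.5 µM and 5 for TCIPP against TCEP at 25 µM, beside 7.49%, 8.25%, 3.85% and 8.75% of genes. Against DMSO, same-numbered libraries correlated at 0.0164 to 0.158, not all over 0.1, and 9 of 12 treated libraries correlated best with the DMSO library of their own number, so the block is not part of the design there. The block changed no other count. The cause of these differences was not tested.

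Leaving out 1 library at a time gave 0 to 1 members called for TCIPP against TCEP at 25 µM and 0 in the other 7 comparisons. The members' median log2 fold change ran from -0.054 to -0.020 for TCIPP 2.5 µM against DMSO, from 0.019 to 0.056 for TCEP 250 µM against DMSO, and from -0.080 to -0.0014 for TCIPP against TCEP at 25 µM. The far values came without TCEP 250 µM replicate 3 (0.056), TCIPP 2.5 µM replicate 3 (-0.020) and TCIPP 25 µM replicate 2 (-0.080, with MRPS18C called). The medians for TCEP 25 µM against DMSO and TCIPP 25 against 2.5 µM took either sign, all within the spread between replicates. None of the named members reversed, but 29 of their 56 values moved by over 1.5 times without 1 library, and MRPS6 moved most. Depth limits the low members most, MRPL53 at 7 to 104 reads and MRPS6 at 55 to 427 reads per library.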
